A study of Mus musculus with 24 samples.

Results

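Cd3d, Cd3g, Trac, Cd2 and Nkg7 are grouped here as T cell and natural killer (NK) cell genes. Their levels were followed through 24 RNA-seq libraries of mouse periodontal tissue. The genes were taken by symbol and are 5 of the 38321 gene IDs that each library lists. The study asked how loss and replacement of estrogen act on tissues around teeth with ligature periodontitis, an inflammation set off by a silk thread tied around a tooth. Poly(A) RNA came from female C57BL/6J mice, wild type and 11 weeks old when the experiment began. In the OVXE2 group both ovaries were removed on day 0 and estradiol benzoate was injected under the skin from day 4, at 1 µg per day in 100 µL of corn oil. The OVX group had the same surgery followed by vehicle, and the Sham group had sham surgery followed by vehicle. All 3 groups carried the ligature around the second upper molars of both sides from day 7 until collection on day 14, so no mice without ligature were compared. Each group gave 4 libraries of the dentoalveolar complex (DAC), the jaw bone with its teeth freed of soft tissue, and 4 of the gingiva around the molars. The DAC therefore includes bone marrow, where blood cells are formed.

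A T cell recognises antigen through a receptor of alpha and beta chains that has no signalling part of its own. The CD3 chains delta, gamma and epsilon and the zeta chain carry the signal into the cell, where the kinase Lck starts it. Cd3d and Cd3g encode the delta and gamma chains, and Trac encodes the constant region of the alpha chain. Cd2 encodes an adhesion receptor of T and NK cells that binds CD48 in mice, and in mice it is also made by B lineage cells. Nkg7 encodes a membrane protein of the granules with which cytotoxic T cells and NK cells kill their targets. T cells in periodontal tissue are known both as a defence against oral bacteria and as a source of cytokines that drive bone loss. Estrogen is known to hold back lymphocyte formation in bone marrow.

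By GENCODE M21 on GRCm38, Cd3d (ENSMUSG00000032094, chromosome 9, 44981786 to 44987339, plus strand) and Cd3g (ENSMUSG00000002033, chromosome 9, 44969572 to 44980431, minus strand) lie head to head. Their starts are 1355 bases apart. Trac (ENSMUSG00000076928) lies on chromosome 14 from 54220521 to 54224206 on the plus strand. Cd2 (ENSMUSG00000027863) lies on chromosome 3 from 101275899 to 101287939 on the minus strand. Nkg7 (ENSMUSG00000004612) lies on chromosome 7 from 43437073 to 43438249 on the plus strand. No other listed gene overlapped any of the 5.

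The 250 bases before the start of Cd3d, Cd3g and Nkg7 are shown because the first 2 leave one stretch of DNA in opposite directions, while Nkg7 differed from both of them in its levels between libraries. The sequences are RefSeq's for GRCm38.p6, read 5′ to 3′ on the strand of the gene. They cover chr9:44981536-44981785 (plus strand) for Cd3d, chr9:44980432-44980681 (minus strand) for Cd3g and chr7:43436888-43437137 (plus strand) for Nkg7, where the RefSeq start lies inside the GENCODE gene. Capitals mark matches, on either strand, to a core motif of ETS, RUNX or GATA factors or to an E-box, whose letters are given after the sequences.
Cd3d: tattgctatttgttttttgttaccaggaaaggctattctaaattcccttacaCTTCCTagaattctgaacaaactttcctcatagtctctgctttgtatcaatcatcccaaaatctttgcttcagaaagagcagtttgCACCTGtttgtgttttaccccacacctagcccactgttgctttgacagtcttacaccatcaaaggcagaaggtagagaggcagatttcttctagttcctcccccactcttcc
Cd3g: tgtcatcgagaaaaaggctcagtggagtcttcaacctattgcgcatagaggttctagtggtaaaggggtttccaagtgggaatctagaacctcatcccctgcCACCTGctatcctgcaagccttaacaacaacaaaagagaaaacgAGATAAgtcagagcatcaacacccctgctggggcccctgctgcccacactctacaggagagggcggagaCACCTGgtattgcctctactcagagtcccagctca
Nkg7: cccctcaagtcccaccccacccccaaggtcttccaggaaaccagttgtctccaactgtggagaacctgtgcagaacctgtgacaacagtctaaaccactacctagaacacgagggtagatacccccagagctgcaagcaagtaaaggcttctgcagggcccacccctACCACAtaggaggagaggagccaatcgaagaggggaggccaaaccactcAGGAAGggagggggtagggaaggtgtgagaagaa

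The Cd3d window held the ETS core AGGAAG, beginning 198 bases before the start, and the E-box CACCTG, beginning 112 bases before it. The Cd3g window held the GATA core AGATAA at 104 bases and CACCTG at 148 and at 35 bases before the start. The Nkg7 window held the RUNX core TGTGGT at 83 and AGGAAG at 34 bases before the start. None of the 3 windows held the core palindrome of the estrogen response element (GGTCA, then any 3 bases, then TGACC). Of 27025 promoters of the same length, 29.2% held AGGAAG, 14.2% TGTGGT, 10.3% AGATAA, 17.1% CACCTG and 0.0629% the estrogen palindrome. The CACCTG hexamer was thus the only motif of the 4 found in both Cd3 windows, at a share of all promoters that makes such matches common.

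Gene counts per library were 14771830 to 29248358 in the DAC and 18598422 to 26001342 in gingiva. Marker genes matched the tissue labels: keratinocyte genes took 0.0837 to 0.546% of counts in the DAC and 6.59 to 8.90% in gingiva, and osteoblast genes took 5.96 to 8.65% in the DAC and 0.186 to 0.584% in gingiva. Of the 6 keratinocyte genes only Krt14 and Krt13 had an ID in the files, so that share covers these 2. Some libraries stood apart. DAC Sham replicate 2 was the shallowest, with 14771830 gene counts. The list named nasal gland held Bpifb9b, Bpifb9a, Bpifa1, Obp1a, Obp2a, Odam, Muc5b and Dmbt1. These genes together took 13.2% of counts in DAC OVX replicate 1 and 0.202 to 1.7% in the other DAC libraries. Brain neuron genes were highest in DAC Sham replicates 2 and 4, OVX replicate 1 and OVXE2 replicate 2. The share of reads on the other strand split the DAC libraries into 8 higher and 4 lower ones. The lower ones were Sham 4, OVX 1, OVX 2 and OVXE2 4, so the higher set kept only OVX 3 and OVX 4 of the OVX group.

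Levels are given as CPM, counts per 1000000 gene counts, with TMM scaling (a library-size correction) within each tissue. Differences are log2 changes with a standard error (SE) from edgeR's quasi-likelihood test, and a gene was called where its p, adjusted by Benjamini-Hochberg over all genes of the tissue, was under 0.05. In bulk tissue, fewer cells of a type and less RNA per cell cannot be told apart.

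In the DAC, Nkg7 and Cd2 fell in OVXE2 against OVX, 4.32-fold and 4.19-fold, with no overlap between the groups. The 3 T cell receptor genes had lower mean levels in OVXE2 too, without passing the test. Nkg7 stood at 2.74, 5.77, 4.00 and 3.58 CPM in the OVXE2 libraries, against 15, 17.7, 19.1 and 17.8 CPM in the OVX libraries. Every OVXE2 library lay well below every OVX library, with no overlap. Nkg7 had a log2 change of −2.11 ± 0.25 (SE), 4.32-fold lower in OVXE2 than in OVX, with an edgeR Benjamini-Hochberg adjusted p of 0.00133. Over the 12 DAC libraries the level of Nkg7 was most like those of BC035044, Elane and Mpo, as given below. Elane and Mpo are in the immature neutrophil list.

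Cd2, the adhesion receptor gene, stood at 1.48, 0.856, 1.21 and 1.72 CPM in OVXE2, against 5.43, 3.64, 6.99 and 6.08 CPM in OVX. All 4 OVXE2 libraries were below the lowest OVX library. Its log2 change was −2.07 ± 0.29 (SE), 4.19-fold lower, with an edgeR Benjamini-Hochberg adjusted p of 0.00306. These 2 of the 5 genes were called lower in OVXE2 than in OVX, beside 1.45% of all 13617 genes tested (198 lower, with 92 higher). Both calls held without each of the 12 libraries in turn, with adjusted p up to 0.00727 for Nkg7 and 0.0127 for Cd2. In the 8 libraries of higher other-strand share, the log2 change of Nkg7 was −2.14 (edgeR adjusted p 0.0659). That set kept only OVX 3 and OVX 4 of the OVX group, so an effect of strand share and of fewer libraries cannot be told apart. The other set held too few libraries of each group for a value.

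**Figure D1:**
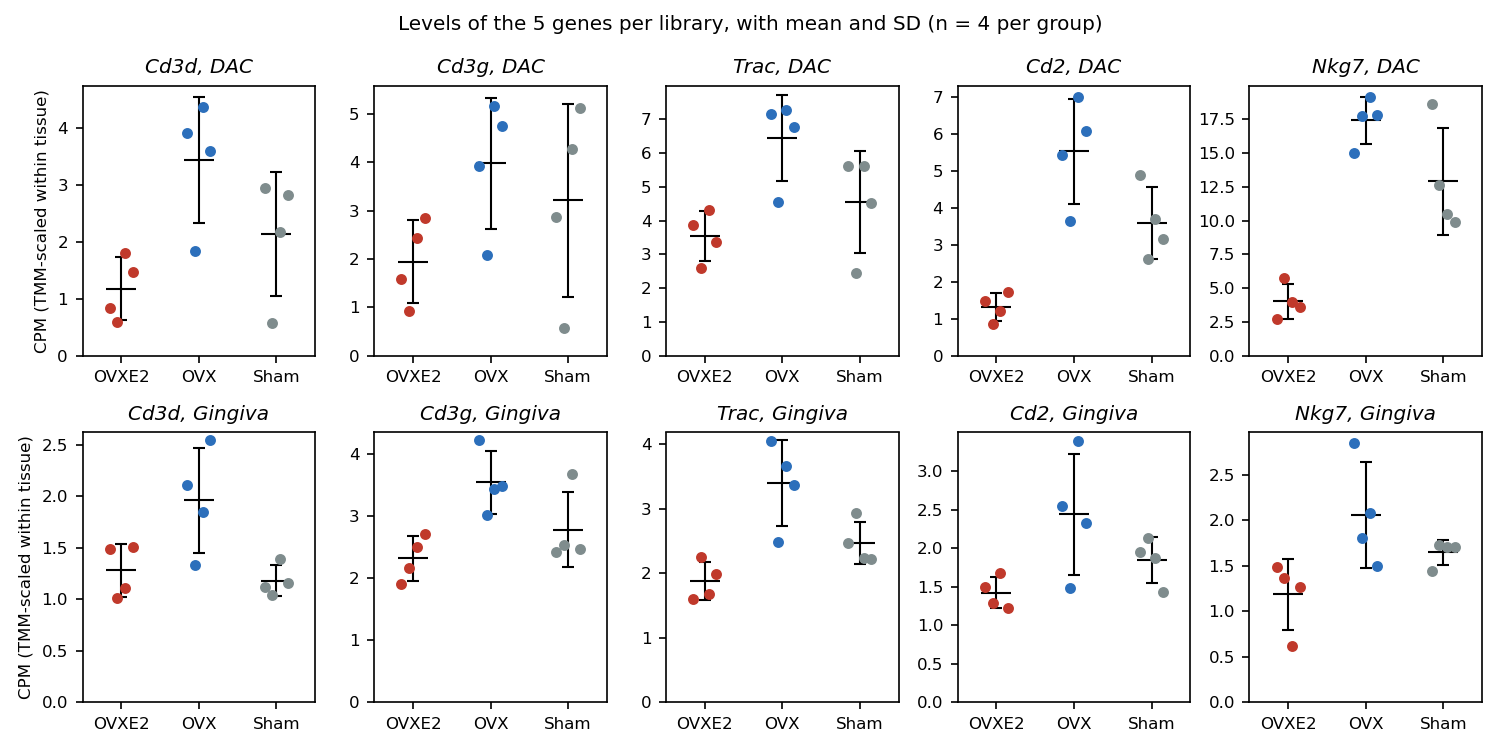
Level of Cd3d, Cd3g, Trac, Cd2 and Nkg7 in CPM (vertical axis, linear) in each of the 24 libraries, DAC above and gingiva below, with the OVXE2, OVX and Sham groups from left to right. Points are libraries, and bars give the mean and SD of 4. Nkg7 in the DAC lies between 2.74 and 5.77 CPM in OVXE2 and between 15 and 19.1 CPM in OVX.

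Cd3d stood at 0.843, 0.596, 1.80 and 1.47 CPM in OVXE2, against 3.91, 1.84, 4.37 and 3.59 CPM in OVX. The highest OVXE2 library came just under the lowest OVX library, so the groups did not overlap. The log2 change of Cd3d was −1.54 ± 0.49 (SE), with an edgeR Benjamini-Hochberg adjusted p of 0.193 and an interval of 2 SE from −2.53 to −0.56. Trac, the alpha chain gene, stood at 3.87, 2.61, 4.32 and 3.37 CPM in OVXE2, against 7.15, 4.55, 7.28 and 6.78 CPM in OVX. Again the groups were apart, by a small margin at OVX replicate 2. Trac had a log2 change of −0.86 ± 0.27 (SE) and an edgeR Benjamini-Hochberg adjusted p of 0.186.

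Cd3g stood at 1.58, 0.931, 2.43 and 2.84 CPM in OVXE2, against 3.91, 2.09, 5.15 and 4.75 CPM in OVX. Here the groups overlapped, because OVX replicate 2 was lower than 2 of the OVXE2 libraries. Its log2 change of −1.03 ± 0.55 (SE) had an edgeR Benjamini-Hochberg adjusted p of 0.638, and the interval of 2 SE ran from −2.13 to 0.07. In all, 4 of the 5 genes had every OVXE2 library below every OVX library, beside 3.51% of the genes tested. Given how the 5 were chosen, this is a description only. DESeq2 also called Cd3d and Trac, with adjusted p of 0.0477 and 0.0438. Counts behind these values were small: 16 to 42 for Cd3d in OVXE2 libraries and 45 to 108 in OVX libraries.

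Against Sham, the same 2 genes were called in the DAC: Nkg7 and Cd2 fell in OVXE2, and the receptor genes did not pass. The OVXE2 libraries here are those already described. In Sham, Nkg7 stood at 18.6, 12.6, 10.5 and 9.86 CPM, and its mean was 4.02 ± 1.28 CPM in OVXE2 against 12.9 ± 3.97 CPM in Sham (SD, n = 4 each). The lowest Sham library was clearly above the highest OVXE2 library. Nkg7 had a log2 change of −1.68 ± 0.25 (SE), 3.2-fold lower in OVXE2 than in Sham, with an edgeR Benjamini-Hochberg adjusted p of 0.00901. Cd2 stood at 4.89, 2.63, 3.69 and 3.15 CPM in Sham and averaged 1.32 ± 0.369 CPM in OVXE2 against 3.59 ± 0.969 CPM in Sham (SD, n = 4 each). The groups of Cd2 were also apart. The log2 change of Cd2 was −1.44 ± 0.29 (SE), 2.72-fold lower, with an edgeR Benjamini-Hochberg adjusted p of 0.0366. Of all genes tested 0.661% were called lower, and 2.78% had every OVXE2 library below every Sham library, as Nkg7 and Cd2 did.

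The call of Nkg7 against Sham held without each library in turn, with an adjusted p of 0.0411 at most. That of Cd2 held without Sham 2, OVX 2 or OVX 3 alone. The call was lost without any one of the other 9 libraries. Its adjusted p was then 0.124 without Sham 1, 0.107 without Sham 3, 0.0671 without Sham 4, 0.0567 without OVX 1 and 0.0647 without OVX 4. It was 0.103, 0.105, 0.073 and 0.0589 without OVXE2 1, 2, 3 and 4. Over those 12 fits the log2 change of Cd2 kept between −1.60 and −1.26. With only the OVXE2 and Sham libraries in the fit, neither gene passed, with adjusted p of 0.0588 for Nkg7 and 0.0932 for Cd2. Neither passed in the 8 libraries of higher other-strand share (0.128 for Nkg7 and 0.147 for Cd2). Cd2 was also lost without the 4 libraries of most brain neuron counts (0.171) and without the shallowest and the nasal gland library together (0.0614).

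Cd3d averaged 1.18 ± 0.555 CPM in OVXE2 against 2.13 ± 1.09 CPM in Sham, Cd3g 1.95 ± 0.856 against 3.21 ± 1.98 CPM, and Trac 3.54 ± 0.734 against 4.55 ± 1.5 CPM (SD, n = 4 each). The Sham spread came in large part from replicate 2, where Cd3d and Cd3g each had 9 counts. Replicate 2 was the shallowest library and the one with the highest share of brain neuron counts. That library held 0.577 CPM of Cd3d and of Cd3g and 2.44 CPM of Trac, while its 12.6 CPM of Nkg7 were the second highest of the Sham group. Log2 changes of −0.87 ± 0.49 for Cd3d, −0.73 ± 0.55 for Cd3g and −0.37 ± 0.27 for Trac (SE) had edgeR Benjamini-Hochberg adjusted p of 0.694, 0.796 and 0.791.

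Ovariectomy alone, OVX against Sham, gave no call in the DAC for any of the 5 genes or for any other gene (0%). Unadjusted p lay under 0.05 for 437 genes, and DESeq2 called 10. Mean levels of all 5 were higher in OVX, and for all 5 the OVX and Sham libraries overlapped. Log2 changes were 0.68 ± 0.48 for Cd3d, 0.30 ± 0.55 for Cd3g, 0.50 ± 0.27 for Trac, 0.62 ± 0.28 for Cd2 and 0.43 ± 0.24 for Nkg7 (SE), with edgeR Benjamini-Hochberg adjusted p of 0.874 to 0.898. Cd3g fell on the other side of 0 without Sham replicate 2, at −0.04. The intervals of 2 SE ran from 0.07 to 1.17 for Cd2 and from −0.04 to 0.91 for Nkg7. The 3 comparisons of a tissue share their libraries: OVX stands in 2 of them, and its level enters both with opposite sign.

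**Figure D2:**
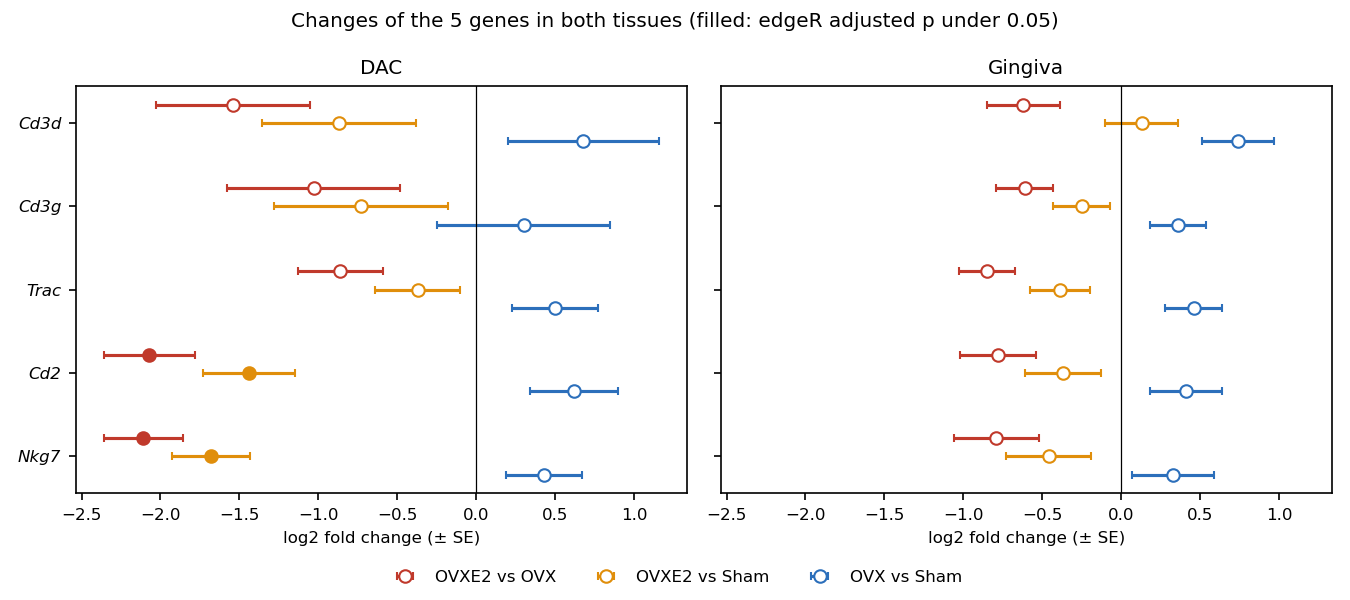
Log2 change with SE (horizontal bars) of the 5 genes in the 3 comparisons, DAC left and gingiva right. Filled points passed at an adjusted p under 0.05. Filled points are Nkg7 and Cd2 in the DAC, in OVXE2 against OVX (−2.11 and −2.07) and against Sham (−1.68 and −1.44), and there is none in gingiva.

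In gingiva the 5 genes stood lower in OVXE2 than in OVX on average, and none passed. Trac stood at 1.61, 2.25, 1.68 and 1.99 CPM in OVXE2, against 4.06, 2.49, 3.66 and 3.37 CPM in OVX. All OVXE2 libraries were below all OVX libraries. The log2 change of Trac was −0.85 ± 0.18 (SE) with an edgeR Benjamini-Hochberg adjusted p of 0.211, and DESeq2 called it with 0.0223. Nkg7 stood at 1.49, 1.37, 0.616 and 1.27 CPM in OVXE2, against 2.85, 1.80, 2.08 and 1.5 CPM in OVX. The top OVXE2 library came just below the bottom OVX library. Nkg7 had a log2 change of −0.79 ± 0.27 (SE) and an edgeR Benjamini-Hochberg adjusted p of 0.304.

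Cd3g stood at 1.90, 2.17, 2.5 and 2.71 CPM in OVXE2 and 4.23, 3.02, 3.44 and 3.49 CPM in OVX gingiva. These groups were apart as well. Cd3d averaged 1.28 ± 0.260 CPM in OVXE2 and 1.96 ± 0.506 CPM in OVX, and Cd2 averaged 1.42 ± 0.205 and 2.44 ± 0.784 CPM (SD, n = 4 each). For both of these, OVX replicate 2 fell among the OVXE2 libraries. Log2 changes were −0.61 ± 0.18 for Cd3g, −0.62 ± 0.23 for Cd3d and −0.78 ± 0.24 for Cd2 (SE), with edgeR Benjamini-Hochberg adjusted p of 0.298, 0.311 and 0.299. The groups of Cd3g, Trac and Nkg7 did not overlap, beside 2.92% of the 12680 genes tested in gingiva. No gene at all was called in this comparison by edgeR (0%), while 1766 genes, the 5 among them, had an unadjusted p under 0.05 and DESeq2 called 92. Muscle genes stood higher in OVXE2 in 5 of 5, with none called and a median log2 change of 1.54; their summed share was 0.142 to 0.460% of counts in OVXE2 and 0.054 to 0.215% in OVX, which overlapped. Dendritic cell genes were lower in 5 of 6, with none called and a median of −0.61; their share was 0.000855 to 0.00124% in OVXE2 and 0.0012 to 0.00182% in OVX. Monocyte and macrophage genes were lower in 6 of 6, with none called and a median of −0.48; their share was 0.022 to 0.0314% in OVXE2 and 0.0243 to 0.0506% in OVX. The part of these markers in the lower levels was not tested.

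Between OVXE2 and Sham gingiva the log2 changes were 0.13 ± 0.23 for Cd3d, −0.25 ± 0.18 for Cd3g, −0.39 ± 0.19 for Trac, −0.37 ± 0.24 for Cd2 and −0.46 ± 0.27 for Nkg7 (SE). Their edgeR Benjamini-Hochberg adjusted p ran from 0.684 to 0.923. In OVX against Sham they were 0.74 ± 0.23 for Cd3d, 0.36 ± 0.18 for Cd3g, 0.46 ± 0.18 for Trac, 0.41 ± 0.23 for Cd2 and 0.33 ± 0.26 for Nkg7, with adjusted p of 0.376 to 0.614. Cd3d stood at 2.11, 1.33, 1.85 and 2.54 CPM in OVX gingiva and at 1.12, 1.04, 1.39 and 1.16 CPM in Sham gingiva. Only OVX replicate 2 came within the Sham range. No gene passed in either comparison (0% in each). Unadjusted p lay under 0.05 for 939 genes in OVXE2 against Sham and for 1530 in OVX against Sham, and DESeq2 called 8 and 44.

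Per kilobase of merged exons, the order of the genes was the same in each of the 3 DAC groups. Here both tissues were scaled together. In OVXE2 DAC, Nkg7 stood at 4.25 ± 1.36 CPM per kilobase, Trac at 3.64 ± 0.689, Cd2 at 0.731 ± 0.215, Cd3d at 0.622 ± 0.278 and Cd3g at 0.573 ± 0.249 (SD, n = 4). In OVX DAC these were 18.2 ± 1.55, 6.60 ± 1.27, 3.04 ± 0.731, 1.81 ± 0.565 and 1.16 ± 0.384 CPM per kilobase. In OVX, Nkg7 and Trac differed by far more than their spread, whereas in OVXE2 these neighbours were within 1 SD of each other, as were Cd2, Cd3d and Cd3g. In gingiva Trac came first in all 3 groups, at 2.12 ± 0.325 in OVXE2, 3.80 ± 0.769 in OVX and 2.76 ± 0.363 CPM per kilobase in Sham. Nkg7 came next there, at 1.36 ± 0.449, 2.36 ± 0.679 and 1.88 ± 0.160. Cd2, Cd3d and Cd3g in gingiva ranged between 0.677 and 1.47 CPM per kilobase on average, and in OVXE2 gingiva their means differed by no more than about 1 SD.

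Nkg7 was higher in the DAC than in gingiva in every group. Its level was 3.88 ± 1.24 CPM in DAC and 1.25 ± 0.410 CPM in gingiva of OVXE2, 16.7 ± 1.42 and 2.15 ± 0.620 CPM in OVX, and 12.1 ± 3.76 and 1.72 ± 0.146 CPM in Sham (SD, n = 4 each, both tissues scaled together). No DAC library overlapped a gingival library of its group. The DAC level was 3.1-fold higher in OVXE2, 7.72-fold higher in OVX and 7.05-fold higher in Sham, with log2 differences of 1.63, 2.95 and 2.82 (SE 0.27 each) and edgeR Benjamini-Hochberg adjusted p of 1.35e-05, 2.71e-09 and 4.96e-09. Trac was also higher in the DAC, by log2 differences of 0.78, 0.79 and 0.73 in OVXE2, OVX and Sham (SE 0.23 each), with edgeR Benjamini-Hochberg adjusted p of 0.00504, 0.00374 and 0.00718.

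Cd2 rose in the DAC over gingiva in OVX (1.05 ± 0.26, SE, edgeR Benjamini-Hochberg adjusted p 0.00108) and in Sham (0.81 ± 0.26, 0.00831). In OVXE2 its log2 difference was −0.23 ± 0.27, with an adjusted p of 0.454. Cd3g had −0.38 ± 0.42, 0.04 ± 0.41 and 0.06 ± 0.41 in OVXE2, OVX and Sham, none past the test. Cd3d had −0.25 ± 0.39, 0.68 ± 0.37 and 0.72 ± 0.38, likewise not past it. The Cd3d value in Sham passed without DAC Sham replicate 2, at 1.02 with an adjusted p of 0.0077, and without the 4 DAC libraries of most brain neuron counts, at 0.98 (0.014). That in OVX passed without DAC Sham 2 (0.68, 0.0446) and without DAC OVX 2 (0.88, 0.0455). These counts stand beside 38% of 14209 genes called higher in the DAC in OVXE2, 38.1% in OVX and 39.7% in Sham.

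Whether the effect of treatment differed between the tissues was tested directly. For OVXE2 against OVX, the DAC change minus the gingival change was −1.31 ± 0.37 for Nkg7 and −1.28 ± 0.37 for Cd2 on the log2 scale (SE), with edgeR Benjamini-Hochberg adjusted p of 0.215 and 0.255. Their intervals of 2 SE, −2.05 to −0.58 and −2.02 to −0.53, lay below 0, but neither gene passed over all genes, of which 0.19% (27) did. The same difference was −0.93 ± 0.54 for Cd3d, −0.42 ± 0.58 for Cd3g and −0.01 ± 0.34 for Trac, with adjusted p of 0.633 to 1.0. For OVXE2 against Sham it was −1.18 ± 0.37 for Nkg7 and −1.04 ± 0.37 for Cd2, with adjusted p of 0.383 and 0.539, beside 0.0633% of genes called. For OVX against Sham all 5 lay between −0.04 and 0.24, with none called among all genes (0%; 1212 at an unadjusted p under 0.05, and 0 by DESeq2). A larger effect in the DAC than in gingiva is therefore not shown for any of the 5. Of the 55 other T and NK cell genes tested, described next, 41 had a lower value in the DAC for OVXE2 against OVX, with a median of −0.54 beside 0.03 over all genes and none called; the smallest adjusted p were 0.111 for Il2ra (−1.61) and 0.129 for Slamf7 (−1.12).

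A list of 75 T and NK cell genes, of which 61 were listed in the files, puts the 5 in context. Those not listed, among them Il7r, Il2rb, Gzma, Gzmk, Cd5, Cd6 and Bcl11b, have no value here. The reason for their absence was not examined. Of the listed ones 56 are other genes. Of these others, 54 were tested in the DAC between OVXE2 and OVX. There 47 had a log2 change below 0, 9 fell and none rose, with a median of −0.83 beside 0.02 over all genes tested, of which 1.45% were called lower. The number called ran from 5 to 15 when 1 library was left out: 5 without OVXE2 1, 14 without Sham 2 and 15 without OVX 2. It was 21 with DESeq2, 2 without the 4 libraries of most brain neuron counts and 0 in the 8 libraries of higher other-strand share, where 52 of 56 tested genes still had values below 0. Over all genes tested, the number called in either direction moved too, from 290 with edgeR in all 12 libraries to 598 with DESeq2. It was 122 without the brain neuron libraries and 39 at higher other-strand share. The 2 genes called without the brain neuron libraries were Slamf6 and Slamf7.

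The cytotoxic and NK genes, Nkg7 included, were lower in 11 of 11 tested, with 4 called and a median log2 change of −1.84. Klrk1, which encodes the activating receptor NKG2D, fell to 1.2 ± 0.308 CPM in OVXE2, against 4.52 ± 1.36 CPM in OVX (SD, n = 4 each). Ccl5, a chemokine gene of cytotoxic cells, fell to 2.93 ± 1.19 CPM in OVXE2, against 12 ± 5.03 CPM in OVX. Klrd1, the CD94 partner of NK receptors, fell to 1.10 ± 0.439 CPM in OVXE2, against 3.23 ± 0.810 CPM in OVX. Their log2 changes were −1.91, −2.03 and −1.55, with edgeR Benjamini-Hochberg adjusted p of 0.0108, 0.0187 and 0.0453. The Klrk1 call held without each library. That of Ccl5 was lost without OVX 1, 3 or 4 or OVXE2 1, 2 or 4 (adjusted p up to 0.0696), and that of Klrd1 without any library but Sham 2, OVX 2 and OVXE2 3 (up to 0.150). Without the 4 libraries of most brain neuron counts none of the 3 passed, with adjusted p of 0.0712 for Klrk1, 0.21 for Ccl5 and 0.204 for Klrd1, and at higher other-strand share they had 0.18, 0.0954 and 0.355.

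In the CD2 and SLAM family, receptors that bind each other or their relatives on neighbouring cells, 7 of 8 had values below 0 and 3 were called. Slamf6 fell to 2.13 ± 0.641 CPM in OVXE2, against 7.88 ± 1.47 CPM in OVX (SD, n = 4 each), a log2 change of −1.88 with an edgeR Benjamini-Hochberg adjusted p of 0.00251. Slamf7 fell to 4.32 ± 0.836 CPM in OVXE2, against 12.2 ± 2.82 CPM in OVX, which was −1.5 on the log2 scale (adjusted p 0.00306). Both calls held without each library, as Cd2's did, but not at higher other-strand share, where the adjusted p was 0.0656 for Slamf6 and 0.0883 for Slamf7. The family median was only −0.57: Cd84 (0.01) and Ly9 (−0.33), picked here after their values were seen, showed changes near 0.

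The list of the T cell receptor complex, with Cd3d, Cd3g and Trac in it, had 7 of 7 values below 0, none called and a median of −1.02. Trbc1, a constant region of the beta chain, had −1.67 with an edgeR Benjamini-Hochberg adjusted p of 0.0766. It is a near-identical copy of Trbc2. Reads that map to more than 1 place are left out of gene counts, so the counts of both genes are uncertain. The zeta chain gene Cd247 (−0.03), Trbc2 (−0.30) and the T cell genes Cd4 (0.03) and Thy1 (0.15), also picked after their values were seen, did not share the size of the Cd3d change. Cd4 is also made by some macrophages and dendritic cells, and Thy1 by fibroblasts and bone cells. Of the co-receptors and costimulators 6 of 8 were lower and 1 was called: Cd27, a survival receptor, fell to 0.707 ± 0.137 CPM in OVXE2, against 2.31 ± 0.466 CPM in OVX (SD, n = 4 each; log2 −1.70, edgeR adjusted p 0.00943). Its adjusted p was 0.0521 without the 4 libraries of most brain neuron counts and 0.224 at higher other-strand share. The CD8 genes Cd8a and Cd8b1, picked after their values were seen, had −2.03 and −1.88 with adjusted p of 0.107 and 0.0851.

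Receptor-proximal signalling genes were lower in 7 of 7, with Lck called. Lck stood at 2.37 ± 0.455 CPM in OVXE2 and 7.14 ± 1.99 CPM in OVX (SD, n = 4 each), a log2 change of −1.59 with an edgeR Benjamini-Hochberg adjusted p of 0.0198. That call was lost without OVX 1, 3 or 4 or OVXE2 1, 2 or 4, with an adjusted p up to 0.0724. Transcription factor genes were lower in 7 of 7, with a median of −0.69; Lef1, a partner of beta-catenin in T cell and B cell precursors, fell to 4.14 ± 0.379 CPM in OVXE2, against 6.98 ± 0.814 CPM in OVX (log2 −0.75, adjusted p 0.0144). Cytokine and homing receptors were lower in 6 of 7; Il2ra, the interleukin-2 receptor alpha chain, fell to 2.42 ± 0.938 CPM in OVXE2, against 8.21 ± 2.34 CPM in OVX (log2 −1.76, adjusted p 0.012, lost at 0.0501 without OVXE2 1). Without the 4 libraries of most brain neuron counts the adjusted p was 0.114 for Lck, 0.145 for Lef1 and 0.11 for Il2ra. At higher other-strand share it was 0.135, 0.296 and 0.073. The 4 listed genes of the gamma-delta T cell list stood apart from this direction, with 1 of 4 below 0, none called and a median of 0.13. They are Trdc, Cd163l1, Il23r and Il17a, of which only Trdc encodes a receptor chain. The gamma chain genes Tcrg-C1, Tcrg-C2 and Tcrg-C4 were not listed, so these values do not measure gamma-delta T cells as such. Il23r, the interleukin-23 receptor, had 0.32 with an adjusted p of 0.849.

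**Figure D3:**
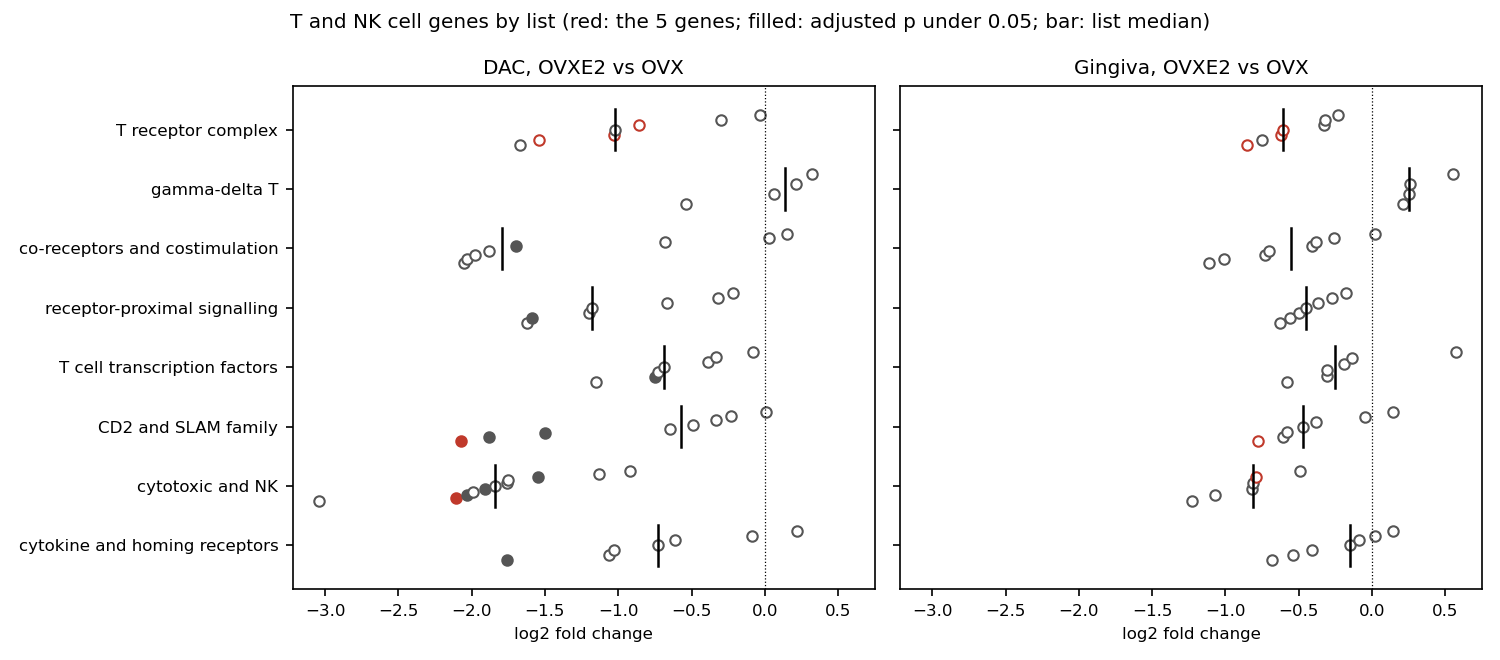
Log2 change of T and NK cell genes between OVXE2 and OVX in 8 lists, DAC left and gingiva right. Each point is a gene, red points are Cd3d, Cd3g, Trac, Cd2 and Nkg7, filled points passed at an adjusted p under 0.05, and bars are list medians. In the DAC the medians run from −1.84 for cytotoxic and NK genes to 0.13 for the 4 listed gamma-delta genes, and no gingival point is filled.

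Against Sham, 47 of the 54 others in the DAC again had values below 0, with a median of −0.60, and 2 were called lower, beside 0.661% of all genes tested. Slamf6 had a log2 change of −1.33 and Cd27 of −1.40, with edgeR Benjamini-Hochberg adjusted p of 0.0306 and 0.0461. The Cd27 call was lost without any library but Sham 2 (up to 0.160). The Slamf6 call was lost without Sham 1, 3 or 4, OVX 4 or OVXE2 1 or 2 (up to 0.109). Neither passed without the 4 libraries of most brain neuron counts (0.0951 for Slamf6 and 0.11 for Cd27) or at higher other-strand share (0.174 and 0.313). In OVX against Sham, 43 of 54 were above 0 with a median of 0.27, none was called, and 2 had an unadjusted p under 0.05. Without the 4 libraries of most brain neuron counts this became 34 of 56 with a median of 0.07.

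In gingiva 38 of 47 others were lower in OVXE2 than in OVX, with a median of −0.38 beside a median of 0 over all genes (to 2 decimals), and none was called. The 4 listed gamma-delta genes were all above 0, with a median of 0.26. Trdc, the delta chain constant region, had 0.55 and Klrd1 had −0.81, with edgeR Benjamini-Hochberg adjusted p of 0.459 and 0.260. In OVXE2 against Sham 28 were higher and 19 lower, with a median of 0.04. In OVX against Sham 43 of 47 were higher, with a median of 0.45, and 10 had an unadjusted p under 0.05.

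Between the tissues, 24 of 55 others were called higher in the DAC in OVXE2, 34 in OVX and 34 in Sham, with medians of 0.47, 1.02 and 1.04 beside 0.03, 0.06 and 0.07 over all genes. Of all genes tested, 38% were called higher in the DAC in OVXE2, 38.1% in OVX and 39.7% in Sham, so the share in OVXE2 was near the background. The number called lower was 7 in OVXE2, 2 in OVX and 2 in Sham. All 8 of the CD2 and SLAM family were called higher in OVX and in Sham, and 7 of 8 in OVXE2, where Cd2 was the exception. In that family Cd84 had log2 differences of 2.88, 2.82 and 3.09 and Ly9 of 2.67, 2.41 and 2.55 in OVXE2, OVX and Sham. Among the cytotoxic and NK genes Klrb1c, an NK cell receptor gene, had 1.15, 2.78 and 2.29, and Ccl5 had 1.51, 2.48 and 2.83. The co-receptor gene Cd4 had 2.58, 2.17 and 2.46, all called. Trbc2 was called lower in the DAC in every group. It averaged 3.91 ± 1.11 CPM in OVXE2 DAC and 18 ± 1.24 CPM in OVXE2 gingiva (SD, n = 4 each, both tissues scaled together), with log2 differences of −2.20, −2.22 and −1.84 in OVXE2, OVX and Sham. Its sign is thus opposite to that of Trac, the other chain of the same receptor, and its counts are uncertain because of the Trbc1 copy.

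Markers of some other blood cells, not all, were lower along with these genes in the DAC between OVXE2 and OVX. All 8 immature neutrophil genes were called lower, with a median of −1.77 and a summed share of 0.0994 to 0.148% of counts in OVXE2, 0.286 to 0.401% in OVX and 0.188 to 0.411% in Sham. Of 5 B precursor genes all were lower and 4 were called, with a median of −2.71 and a share of 0.0044 to 0.00656% in OVXE2, 0.0152 to 0.0214% in OVX and 0.00869 to 0.0123% in Sham. Of 3 thymocyte genes the recombinase genes Rag1 and Rag2, which B precursors also use, were called lower. Dendritic cell genes were lower in 5 of 6 with 3 called, mast and basophil genes in 4 of 5 with 4 called. Monocyte and macrophage genes were lower in 4 of 6 with 1 called and a median of −0.04, and endothelial genes were higher in 4 of 4 with 3 called. The summed shares of some other lists overlapped between OVXE2 and OVX. Plasmacytoid dendritic genes took 0.00949 to 0.0167% in OVXE2 and 0.0106 to 0.0149% in OVX. Innate lymphoid genes took 0.0145 to 0.0255% and 0.0171 to 0.0241%. Mature B and plasma cell genes took 0.0267 to 0.0379% and 0.0359 to 0.0444%. None of the neutrophil or B precursor genes was at 0 in any DAC group. The summed share of the T and NK list itself was 0.072 to 0.085% of counts in OVXE2, 0.0814 to 0.0973% in OVX and 0.0855 to 0.0932% in Sham, so OVXE2 overlapped with OVX and lay just below Sham. The part of other cells in the lower levels of Nkg7, Cd2 and the other called T and NK cell genes was not tested.

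The 5 genes did not all vary together among the 12 DAC libraries. After each group's mean was taken off, log2 CPM of Cd3d ran with Cd3g (Pearson r = 0.935, Spearman rho 0.713, r = 0.817 without the 2 libraries farthest from the Cd3d median) and with Trac (0.898, 0.643 and 0.701). With Nkg7, Cd3d had an r of −0.0839, and Cd2 with Nkg7 one of −0.0882. Nkg7 ran with the mean of the immature neutrophil list (r = 0.706, rho 0.657, and 0.814 without the 2 farthest), for which Cd3d had −0.344. Cd3d had an r of 0.758 with the mean of the dendritic list (rho 0.629, and 0.57 without the 2 farthest). It had 0.584 with monocytes and macrophages, 0.512 with plasmacytoid dendritic cells and −0.631 with brain neurons. These lists were picked after their values were seen. Cd2 had an r of 0.746 with Trac, 0.71 with Cd3d and 0.647 with Cd3g. These were lower as Spearman rho (0.58, 0.524 and 0.434). They were also lower without the 2 libraries farthest from the median of the receptor gene (0.593, 0.533 and 0.424). With the means of the lists of other cells Cd2 had an r of 0.573 for dendritic cells, 0.517 for mature B and plasma cells, 0.502 for B precursors and −0.601 for brain neurons. In the same order, rho was 0.462, 0.517, 0.483 and −0.601. Without the 2 libraries farthest from the Cd2 median, r was 0.452, 0.53, 0.71 and −0.781. The value for B precursors was then above those of the receptor genes. All are descriptions over 12 libraries that share depth and scaling with each other, and the shallow DAC Sham 2 weighs on those of Cd3d. In gingiva the same r was 0.441 for Cd3d and Cd3g and −0.0542 for Cd2 and Nkg7.

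**Figure D4:**
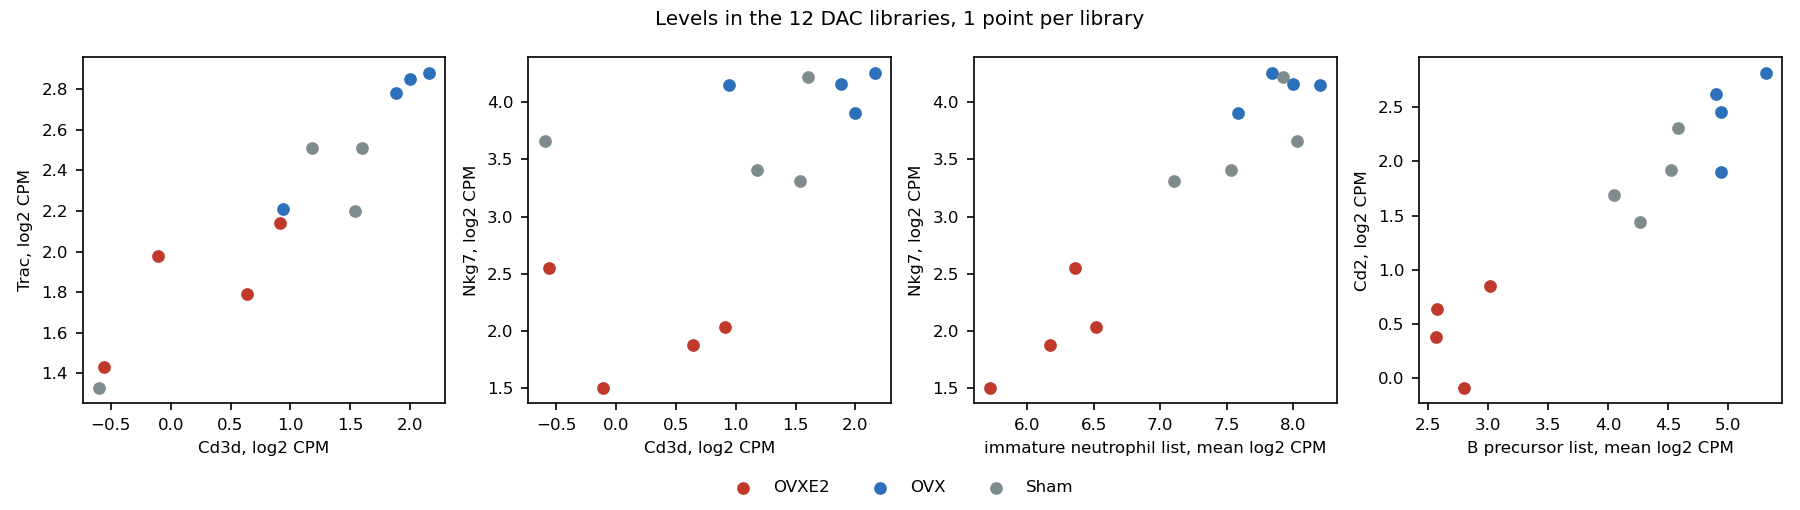
Log2 CPM in the 12 DAC libraries, with points coloured by group: Trac and Nkg7 against Cd3d, Nkg7 against the mean of 8 immature neutrophil genes, and Cd2 against the mean of 5 B precursor genes. After group means were removed, Cd3d and Trac ran together (r = 0.898, rho 0.643, and r = 0.701 without the 2 libraries farthest from the Cd3d median). Nkg7 and Cd3d did not (r = −0.0839).

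By likeness to the mean of the 5 genes, the 6 genes with the highest Pearson r over the 12 DAC libraries were Lck (0.964), Sh2d2a (0.955), Slamf8 (0.951), Klrk1 (0.949), Irf1 (0.939) and Slamf6 (0.936), out of 10095 ranked. These r include the differences between groups. Taken one at a time, a ranking added after the data were seen, Cd3d was most like Sh2d2a (0.966), Cd3g like Sh2d2a (0.926), Trac like Zap70 (0.938) and Cd2 like Slamf6 (0.973). Nkg7 was most like BC035044 (0.982), Elane (0.976) and Mpo (0.975), of which the last pair belongs to the immature neutrophil list. In gingiva the ranking for the mean gave Cox11 (0.913), Thap11 (0.884), Zmynd19 (0.873), Igtp (0.854), Nrf1 (0.851) and Ccdc25 (0.85), out of 9449 genes. No gene of the T and NK list was among those 6.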

How the data were processed

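Poly(A) RNA was sequenced in paired-end mode. Per the submitters' processing notes, reads were handled with fastp, STAR and DESeq2 on GRCm38 (mm10); no version or annotation release is stated in the sources used here. Deposited values were raw gene counts, 1 table per library with 3 count columns; the opposite-strand column was used, since the other strand held 3.38 to 9.03% of stranded counts. GENCODE M21 named 38186 of 38321 IDs and gave coordinates and exon lengths. Genes without an ID in the files enter no library size, level, list or share of all genes. Lines of reads assigned to no gene were left out of library sizes and tests.

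Genes were filtered by filterByExpr, and TMM-scaled counts were tested by edgeR 4.0.16 (quasi-likelihood, robust; R 4.3.3). Each tissue had its own fit of 12 libraries (13617 genes in the DAC, 12680 in gingiva, 9 residual degrees of freedom). All 24 entered the fit for tissues and tissue differences (14209 genes, 18 degrees of freedom). The biological coefficient of variation was 0.305 in the DAC, 0.164 in gingiva and 0.248 over both. SE is the log2 change divided by the square root of F. Log2 CPM used a prior count of 2. The gene test was tested on simulated counts. The labels call libraries biological replicates but do not say whether each is 1 animal or whether tissues share animals, so p-values measure the spread between these samples. Chi-square tests of counts found no duplicated library within a group. Counting error limits genes with few counts, and no molecular identifiers are stated.

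The 5 genes and all lists were chosen with earlier results of these data known. The 5 genes are named in every comparison. Of each other T and NK list up to 3 called genes with the smallest p are named, or 1 as a value; the report prints a part of these, and 1 gene is not reported here. Likeness used genes with a mean log2 CPM of at least 1, without predicted genes, receptor segments or the 5. Alternatives were RLE size factors, DESeq2 1.42.0, no filter, either-strand counts, a replicate block, leaving out each library, the libraries that stood apart, and only the groups compared. Same-numbered libraries did not regularly deviate together (r −0.531 to 0.348), which cannot exclude pairing. In the main fits they were not taken as pairs. Sequences are RefSeq's (GRCm38.p6); Trac and Cd2 had none.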

Additional observations from a re-analysis of the deposited data

Results flagged for a closer look

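In 2 of 30 sets of 4 libraries (a gene in a group of a tissue), 1 library lay far from the other 3, with the gap to its neighbour divided by the whole range above Dixon's critical value of 0.829 for 4 samples. Chance flags about 1 in 20 sets. Cd3g stood at 3.68 CPM in gingiva Sham replicate 3, against 2.43 to 2.53 CPM in the other Sham libraries, a ratio of 0.922. Nkg7 stood at 1.44 CPM in gingiva Sham replicate 1, against 1.70 to 1.73 CPM in the others, a ratio of 0.89. Neither comparison with Sham in gingiva passed for these genes.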

How the results depend on the processing

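For OVXE2 against OVX in the DAC, 2 of the 5 genes were called; this was 4 with DESeq2, 4 with a replicate block, 1 in the 8 libraries of higher other-strand share and 2 in every fit without 1 library. The replicate block added Cd3d (edgeR adjusted p 0.0465) and Trac (0.0325). The labels do not say whether equal numbers pair the libraries. For OVXE2 against Sham in the DAC, 2 were called; this was 1 without the 4 libraries of most brain neuron counts (Cd2 at 0.171), 1 without the shallowest library and that with most nasal gland counts (Cd2 at 0.0614; chosen after seeing the data), 0 at higher other-strand share (Cd2 0.147, Nkg7 0.128), 0 with only the groups compared, and 1 to 2 without 1 library. In gingiva DESeq2 called 1 (Trac). Of the 5 genes, those called between tissues numbered 3 in Sham and in OVX (3 to 4 without 1 library) and 2 in OVXE2. No tissue difference of the 5 genes passed under any alternative run. Over all genes, 290 were called for OVXE2 against OVX in the DAC (176 to 290 without 1 library; 39 to 598 under the others) and 143 against Sham (61 to 164; 16 to 340). In gingiva 0 were called for OVXE2 against OVX, 60 without OVX replicate 3 and 92 with DESeq2. The cause of these shifts was not tested.

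Of 1552 values of single genes under alternatives, 1475 kept direction and side of the threshold, 51 changed sign, 16 lost a call and 10 gained one. None of the sign changes was a called value. With a replicate block, Cd3g in DAC against gingiva was −0.11 in Sham and −0.05 in OVX, and the tissue difference of OVX against Sham was 0.08 for Cd3d and 0.06 for Cd3g. At higher other-strand share, Cd3g was 0.07 in gingiva OVXE2 against Sham and −0.24 in DAC against gingiva Sham; the tissue difference of OVX against Sham was 0.30 for Cd3d and 0.57 for Cd3g. Without the 4 brain neuron libraries, Trac tissue differences were 0.18 (OVXE2 against OVX), −0.13 (OVXE2 against Sham) and −0.31 (OVX against Sham), and Cd2 had −0.02 in the last. Cd3g was −0.03 in DAC OVX against Sham without the shallowest and nasal gland libraries, and −0.01 in DAC against gingiva OVX with no filter. Trac had −0.05 in the tissue difference of OVXE2 against Sham with counts of either strand. Without 1 library, Cd3g ranged from −0.04 to 0.62 in DAC OVX against Sham, from −0.25 to 0.40 in DAC against gingiva Sham and from −0.09 to 0.24 in OVX. Tissue differences ranged for Trac from −0.14 to 0.11 (OVXE2 against OVX), −0.15 to 0.17 (OVXE2 against Sham) and −0.14 to 0.19 (OVX against Sham). For OVX against Sham they ranged from −0.34 to 0.16 for Cd3d and −0.37 to 0.28 for Cd3g. Over the 12 comparisons, RLE scaling moved no median of the T and NK list by more than 0.02. Counts as low as 9 per library limit Cd3d and Cd3g, and DAC Sham replicate 2 weighs on every comparison with Sham there. That library was the shallowest and also had the highest share of brain neuron counts (0.0358%). The cause of its low Cd3d and Cd3g levels, which are scaled to depth, was not tested.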
